A study of Mus musculus with 15 samples.

Results

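The 9 long noncoding RNAs Malat1, Neat1, Miat, Meg3, Rian, Mirg, Snhg11, Gas5 and Snhg1 were followed by name through 15 hippocampal RNA-seq libraries of the mouse. They are 9 of the 37310 genes counted, and all 9 were among the 18008 genes tested. The study asked how normalization affects RNA-seq results. Its examples included these hippocampal libraries, made after a contextual fear memory was formed or retrieved, and from controls. FC mice were placed in a chamber, received a foot shock of 1.5 mA lasting 2 s, with tissue taken 30 min later. RT mice had the same training, were returned to the chamber for a 5 min test 24 h after it, with tissue taken 30 min after the test. Untrained, handled mice made up the CC group, and their hippocampi were taken at the clock time used for the others. All animals were wild-type C57BL/6J males 2 months old, and each group had n = 5 libraries, numbered 3, 5, 6, 7 and 8. Bulk tissue was sequenced, so fewer cells of a type and less RNA per cell cannot be told apart.

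Long noncoding RNAs act as RNA, without being translated into a known protein. Malat1 lies in nuclear speckles, where splicing factors collect, Neat1 builds the nuclear bodies called paraspeckles, and Miat (also called Gomafu) sits in nuclear domains of neurons and binds splicing factors. Meg3, Rian and Mirg lie in a row in the imprinted Dlk1-Dio3 domain, are expressed from the maternal chromosome and carry many of its snoRNAs and microRNAs. Snhg11, Gas5 and Snhg1 are host genes whose introns release snoRNAs, and spliced Gas5 and Snhg1 are known targets of nonsense-mediated decay.

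Depth, the identity of the tissue and the labels were checked once over the whole series. The totals ran from 42051401 to 59093377 reads in FC, from 35731428 to 61275293 in RT and from 39992029 to 62555543 in CC. The activity-induced genes Arc, Fos, Dusp1 and Egr2 were higher in FC than in CC and higher in RT than in CC, 4 of 4 each time by edgeR, and Fos, for example, had 1148 to 1698 normalized reads in FC and 977 to 1257 in RT, against 219 to 357 in CC. All 12 markers of hippocampal neurons were present, with summed levels of 5521 to 7806 RPM (reads scaled to the total of each library) in FC, 6401 to 7762 in RT and 7041 to 8287 in CC. Libraries FC3 and RT3 stood apart from the rest: the 77 cytosolic ribosomal-protein genes summed to 16125 RPM in FC3 and 10422 in RT3, against 5811 to 6978 in the other 13 libraries. The 14 choroid plexus markers summed to 271 to 1685 RPM in FC, with the highest values in FC5 and FC8, to 225 to 593 in RT and to 212 to 234 in CC, and in CC 6 of the 14 averaged under 1 RPM.

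In these hippocampi Meg3 and Snhg11 had the most reads of the long noncoding genes tested, counting Snhg11 as one, and 5 of the 9 RNAs held the top 5 ranks by reads. Genes were counted as noncoding by the long noncoding biotypes of the annotation, such as lincRNA, processed transcript and antisense. Small RNA, ribosomal RNA and pseudogene biotypes were left out of this ranking. Of all reads, the 9 RNAs together took 0.741% ± 0.060 in FC, 0.754% ± 0.052 in RT and 0.788% ± 0.088 in CC (SD, n = 5 libraries each), with overlapping ranges of 0.639% to 0.796%, 0.696% to 0.807% and 0.670% to 0.885%. Meg3 ranked 7 and Snhg11 ranked 26 by reads among the 18008 genes tested. Miat ranked 109, Malat1 ranked 183 and Rian ranked 280. Snhg1, at the low end, ranked 10623 by reads and 122 among the 1282 noncoding genes. By reads after polyA selection, the label of an abundant RNA held for Meg3, Snhg11, Miat, Malat1 and Rian, and least for Mirg and Snhg1. How fully polyA selection captured each RNA was not tested.

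Levels between genes were compared per length, as RPKM, which divides RPM by the length of the exons in kilobases. Exons were merged over all annotated transcripts. Snhg1 thus has 1 block of 2947 bases, and the 25 transcripts of Gas5 give 3 blocks with 3760 bases in all. The order of levels per length depends on these annotated lengths. Snhg11, which the annotation lists as protein-coding, had 222 ± 17.7 RPKM and Meg3 had 194 ± 21.3 RPKM (SD over 15 libraries). Snhg11 was above Meg3 in 15 of 15 libraries, although their ranges overlapped. Miat and Malat1 came next with 93.2 ± 11.9 and 86.0 ± 14.9 RPKM, and this pair was not separated, since Miat was the higher in 10 of 15 libraries. Rian had 57.7 ± 7.91 RPKM and Gas5 had 28.6 ± 9.47 RPKM, with Rian higher in 14 of 15 libraries, FC3 being the exception. Neat1 and Mirg, with 8.12 ± 1.00 and 8.08 ± 1.39 RPKM, could not be ordered, as Neat1 was the higher in 7 of 15 libraries. Snhg1 was last with 3.04 ± 0.665 RPKM.

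**Figure D1:**
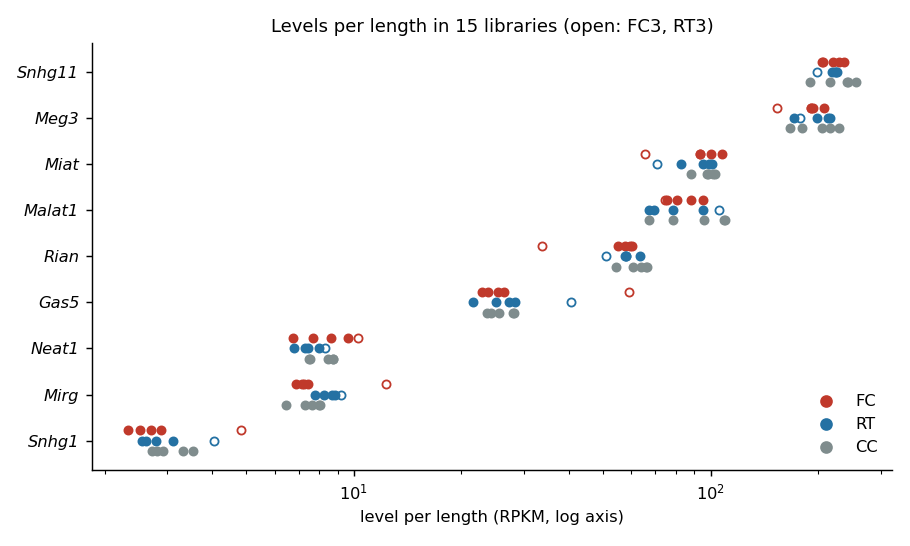
Level per length of the 9 long noncoding RNAs, as RPKM on a log axis; each point is 1 library, FC above RT above CC, and FC3 and RT3 are open. The order runs from Snhg11, with a mean of 222 RPKM, to Snhg1, with 3.04 RPKM, and FC3 lies away from the other FC libraries for Rian, Gas5, Mirg and Snhg1.

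The nuclear RNAs Malat1, Neat1 and Miat gave no call in any comparison. Malat1 lies on the minus strand of chr19:5795690-5802671 (mm9) as a single exon. After upper-quartile (UQ) normalization, which scales each library by the upper quartile of its counts, Malat1 had 27811, 30773, 33718, 28829 and 26682 reads in FC3, FC5, FC6, FC7 and FC8. It had 38312, 27990, 33600, 24055 and 24532 reads in RT3, RT5, RT6, RT7 and RT8, and 38520, 38713, 28205, 34233 and 24375 in CC3, CC5, CC6, CC7 and CC8. The FC values lay inside the CC range, and both RT and CC spread widely, with CC3, CC5 and RT3 high and CC8, RT7 and RT8 low.

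The test used 1 negative binomial model in edgeR over all 15 libraries with 5 factors of unwanted variation (RUVs), a likelihood ratio test and a false discovery rate (FDR) threshold of 0.01 over all genes tested. A gene past that threshold is referred to as called. Malat1 had a log2 fold change of -0.12 ± 0.11 (SE) in FC over CC (edgeR FDR 0.682), with a 95% interval of -0.34 to 0.11. The value was -0.05 without CC3 or without FC3, -0.07 without FC5, -0.20 without CC8 and -0.04 with a replicate block, none of them called. That interval was the widest of the 9 RNAs in FC over CC, and changes within it were not detectable for Malat1 at this spread.

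Neat1, 1 exon of 20771 bases on the minus strand of chr19:5824708-5845478, had 11426, 10044, 9082, 7192 and 8040 UQ-normalized reads in FC3 to FC8. In RT3 to RT8 it had 8935, 7773, 7094, 8450 and 7825 reads, and in CC3 to CC8 it had 8923, 9208, 9327, 8000 and 8069. FC spread most, with FC3 and FC5 above every CC library and FC7 below every CC library, and 3 RT libraries lay below every CC library. In RT over CC the log2 fold change of Neat1 was -0.16 ± 0.06 (edgeR FDR 0.146), and in FC over RT it was 0.16 ± 0.06 (edgeR FDR 0.183). Neither passed the threshold. The FC over RT difference became a call when FC7 was left out (log2 fold change 0.23, edgeR FDR 0.00769), and in no other of the 15 fits that each left out 1 library.

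Miat, on the minus strand of chr5:112642248-112657968, had 30562, 41077, 44565, 48501 and 41455 UQ-normalized reads in FC3 to FC8. It had 32039, 45329, 41937, 44359 and 36753 reads in RT3 to RT8 and 43444, 45006, 39801, 46043 and 44688 reads in CC3 to CC8. FC3 and RT3 were the lowest of the 15 libraries for Miat, and the other FC libraries lay on both sides of the CC mean. Its log2 fold change in RT over CC was -0.07 ± 0.04 (edgeR FDR 0.624), and -0.03 without RT8.

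**Figure D2:**
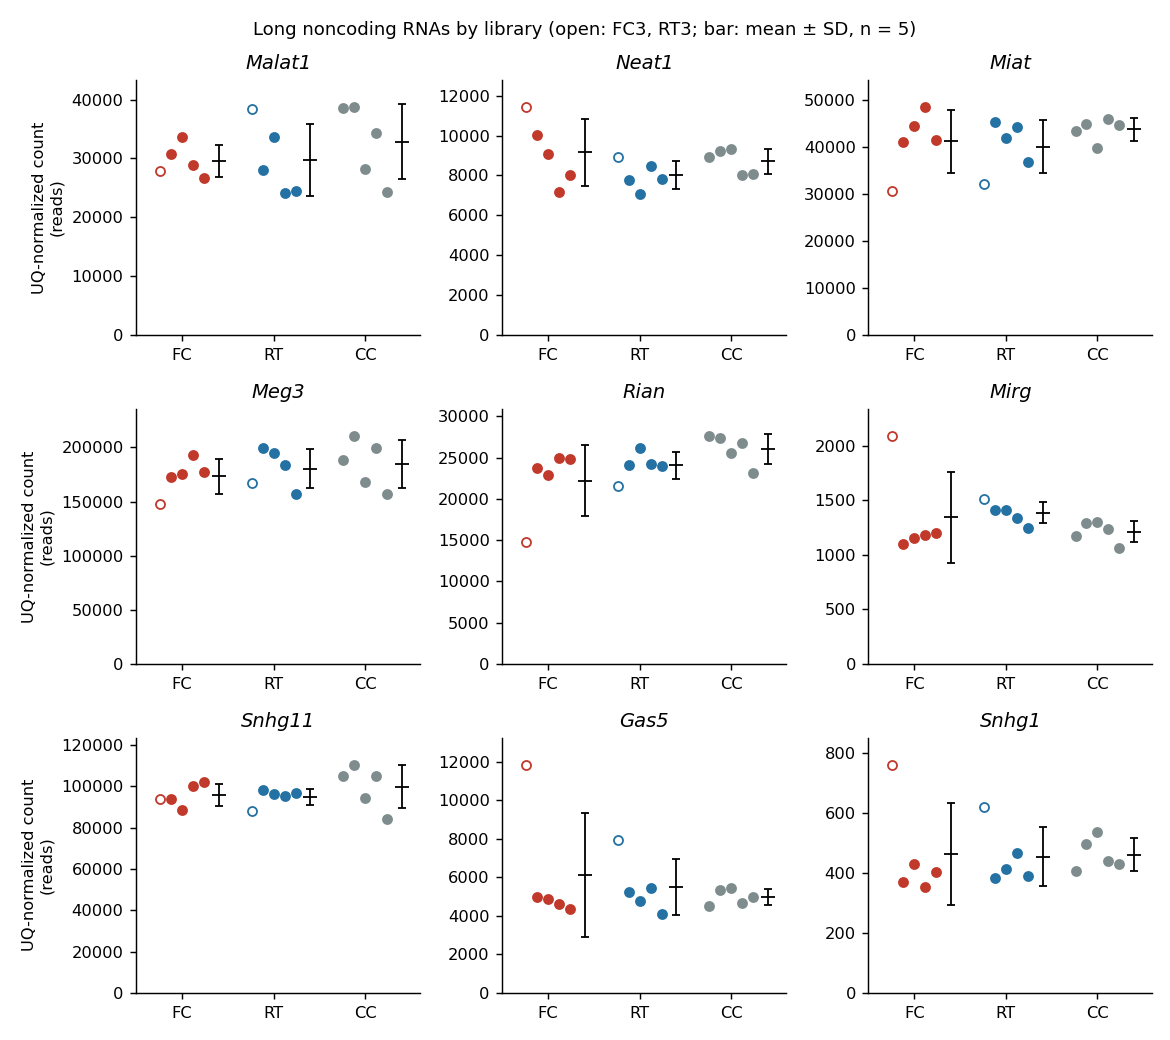
UQ-normalized counts of the 9 RNAs, in reads; each point is 1 library, FC left of RT left of CC, FC3 and RT3 are open, and the bar at the right of each group is the mean ± SD over 5 libraries. The groups overlap in every panel, and FC3 is the highest library for Neat1, Mirg, Gas5 and Snhg1 and the lowest for Miat, Meg3 and Rian.

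Within the Dlk1-Dio3 domain on chromosome 12, Rian was called lower in FC than in CC, and Mirg and Meg3 were called in no comparison. Meg3, a maternally expressed RNA at chr12:110779211-110809936 on the plus strand, had 147879, 173071, 175736, 192629 and 177451 UQ-normalized reads in FC3 to FC8. It had 166772, 199646, 194940, 184093 and 157008 in RT3 to RT8 and 188705, 210573, 167765, 199539 and 157007 in CC3 to CC8. FC3 was the lowest Meg3 value, RT8 and CC8 were the next lowest, and the other libraries of the 3 groups shared 1 range. The log2 fold change of Meg3 was 0.02 ± 0.05 in RT over CC (edgeR FDR 0.933) and -0.05 ± 0.05 in FC over RT (edgeR FDR 0.753). The FC over RT value ran from -0.10, without RT8 or without FC7, to -0.03, without FC5, when 1 library was left out.

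Rian, at chr12:110842155-110899919 on the plus strand, carries the SNORD113 and SNORD112 box C/D snoRNAs. It had 14739, 23702, 22844, 24922 and 24877 UQ-normalized reads in FC3 to FC8. It had 21613, 24169, 26192, 24285 and 24039 in RT3 to RT8, and 27623, 27406, 25519, 26759 and 23183 in CC3 to CC8. Each FC value was below the CC mean, FC3 was far below all others, and CC8 was the CC library that overlapped FC.

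Rian was the 1 RNA of 9 that was called in FC against CC, where 2.24% of all genes tested were called and 0.922% were called lower in FC. Its log2 fold change was -0.16 ± 0.04 (SE; edgeR FDR 0.00442), or 0.895 times the CC level, with a 95% interval of -0.24 to -0.08 on the log2 scale. After the RUVs factors were removed, Rian had 18205, 18307, 17816, 18738 and 19132 adjusted reads in FC3 to FC8, against 20668, 20977, 19616, 21034 and 20747 in CC3 to CC8. These adjusted ranges did not overlap, which held for 11.5% of all genes tested between FC and CC, and for 0.861% before the adjustment. The factors are taken from deviations within groups, and removing them narrows each group. The lack of overlap is therefore no support separate from the call.

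The Rian call was not stable. Without FC3 and RT3 the log2 fold change was -0.13 and the call remained (edgeR FDR 0.00612). It was lost in 8 of 12 alternative fits, among them UQ factors alone (log2 fold change -0.23, edgeR FDR 0.966) and the quasi-likelihood test of edgeR (-0.16, FDR 0.0200), while DESeq2 kept it (-0.15, FDR 0.00109). Leaving out 1 library lost it in 6 of 15 fits. The edgeR FDR was 0.0173 without CC3, 0.0243 without CC5, 0.0126 without CC7, 0.0156 without FC3, 0.0403 without FC5 and 0.0444 without FC6. Choroid plexus markers were highest in FC5 and FC8; without both libraries the log2 fold change of Rian was -0.19 (edgeR FDR 0.0289). The direction was the same in each of these fits. In RT over CC the log2 fold change of Rian was -0.07 ± 0.04 (edgeR FDR 0.569), and in FC over RT it was -0.09 ± 0.04 (edgeR FDR 0.342). The RT over CC value was -0.11 without CC8, and the FC over RT value was -0.05 without FC3 and -0.04 without FC3 and RT3.

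Mirg, at chr12:110973191-110987665 on the plus strand, hosts a dense group of microRNAs. It had 2088, 1097, 1155, 1177 and 1197 UQ-normalized reads in FC3 to FC8. In RT3 to RT8 it had 1510, 1412, 1412, 1340 and 1249, and in CC3 to CC8 it had 1173, 1293, 1300, 1237 and 1063. FC3 stood far above all other libraries, the other 4 FC libraries lay low within the CC range, and 4 of 5 RT libraries lay above every CC library. In RT over CC the log2 fold change of Mirg was 0.15 ± 0.05 (edgeR FDR 0.0446), with a 95% interval of 0.06 to 0.24, and it was not called. In FC over RT it was -0.15 ± 0.05 (edgeR FDR 0.0826), again not called.

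The ratio of reads of 2 genes within a library needs no scaling between libraries. For every 100 Meg3 reads, Rian had 12.7 ± 1.61 reads in FC, 13.4 ± 1.18 in RT and 14.2 ± 0.944 in CC (SD, n = 5 each), and the FC value without FC3 was 13.4 ± 0.530 (n = 4). Mirg had 0.798 ± 0.344 reads per 100 Meg3 reads in FC, 0.772 ± 0.082 in RT and 0.661 ± 0.069 in CC. Without FC3 the FC value was 0.644 ± 0.028 (n = 4), so 1 library set the FC mean. Set against Rian, Mirg had 4.63 to 5.06 reads per 100 Rian reads in the FC libraries other than FC3, where it had 14.2, while RT had 5.20 to 6.99 and CC had 4.24 to 5.10. The lowest RT library was above the highest CC library, by a margin of 5.20 to 5.10. This ratio of the 2 neighbours was added after their values were seen. Among single genes, 1.29% had no overlap between RT and CC after UQ normalization, and the share among gene pairs was not computed.

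**Figure D3:**
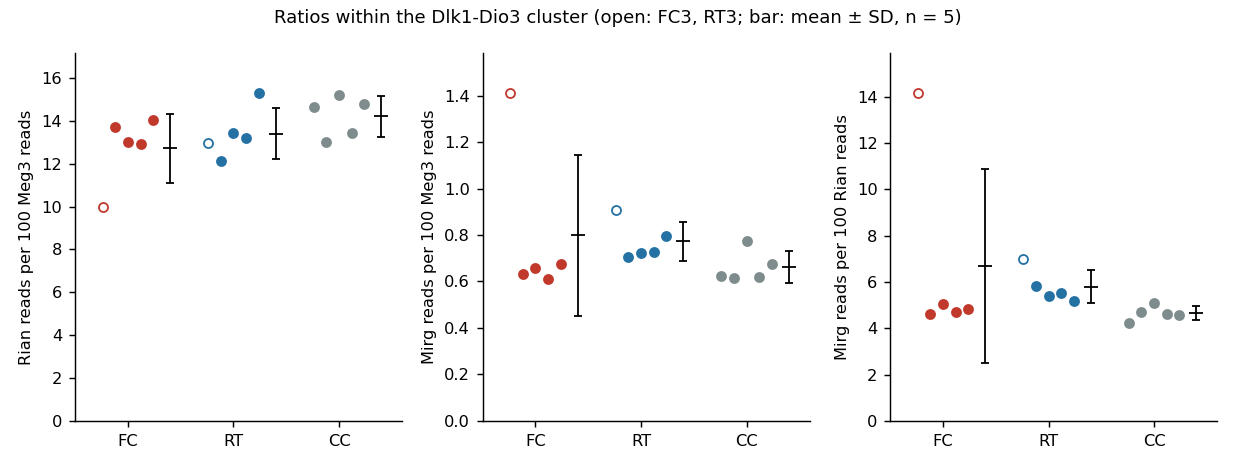
Reads of Rian per 100 Meg3 reads, of Mirg per 100 Meg3 reads and of Mirg per 100 Rian reads; each point is 1 library, FC left of RT left of CC, FC3 and RT3 are open, and the bars are means ± SD over 5 libraries. In the panel of Mirg against Rian, FC3 stands at 14.2, the RT libraries at 5.20 to 6.99 and the CC libraries at 4.24 to 5.10.

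The microRNAs inside the 3 domain RNAs show what these transcripts carry, though polyA libraries count the host and not the mature microRNA. RefSeq (GRCm38.p6) mature sequences were matched exactly to the mm9 spans: 3 lie in Meg3, 6 in Rian and 19 in Mirg. The examples come from Rian, whose level was called, and from Mirg, chosen for its ratio to Rian, which was added after the values were seen. Capitals mark the seed, bases 2 to 8, by which a microRNA recognises its targets.
Rian mmu-miR-341-3p, chr12:110849766-110849786: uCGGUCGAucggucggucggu
Rian mmu-miR-1188-5p, chr12:110850051-110850071: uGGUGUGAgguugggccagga
Rian mmu-miR-370-3p, chr12:110856515-110856536: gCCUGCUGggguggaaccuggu
Mirg mmu-miR-453, chr12:110973879-110973902: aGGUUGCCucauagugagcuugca
Mirg mmu-miR-496a-5p, chr12:110977342-110977362: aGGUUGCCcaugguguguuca
Mirg mmu-miR-154-3p, chr12:110976684-110976705: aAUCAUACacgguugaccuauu
Mirg mmu-miR-377-3p, chr12:110978763-110978784: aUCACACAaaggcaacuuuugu
Mirg mmu-miR-369-3p, chr12:110981676-110981696: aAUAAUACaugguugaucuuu
Mirg mmu-miR-410-3p, chr12:110981974-110981994: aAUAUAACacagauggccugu
The pair mmu-miR-453 and mmu-miR-496a-5p has the seed GGUUGCC in common, and it was the only seed that 2 names shared among the mature sequences matched in the 3 hosts. Rian and Mirg shared no seed.

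Among the host genes of snoRNAs, Gas5 and Snhg1 were highest in FC3 and RT3, and Snhg11 was not. Gas5, at chr1:162964553-162968670 on the plus strand, had 11824, 4962, 4845, 4587 and 4330 UQ-normalized reads in FC3 to FC8. It had 7924, 5243, 4745, 5441 and 4100 in RT3 to RT8 and 4497, 5345, 5417, 4642 and 4991 in CC3 to CC8. FC3 was 2.53 times the mean of the other FC libraries and RT3 was 1.62 times the mean of the other RT libraries. The remaining 13 libraries ran from 4100 to 5441. With the RUVs factors Gas5 had the smallest SE of the 9 RNAs against CC, with 95% intervals of -0.07 to 0.07 in FC over CC and in RT over CC.

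Snhg1, at chr19:8797986-8800932 on the plus strand, had 761, 370, 430, 352 and 402 UQ-normalized reads in FC3 to FC8. It had 619, 384, 413, 468 and 390 in RT3 to RT8 and 406, 496, 538, 439 and 430 in CC3 to CC8. FC3 and RT3 were again the highest libraries, and 3 of the other FC libraries lay below every CC library. The log2 fold change of Snhg1 was -0.19 ± 0.07 in FC over CC (edgeR FDR 0.115) and -0.13 ± 0.07 in RT over CC (edgeR FDR 0.484), neither called. The FC over CC value was -0.12 without FC5, the RT over CC value was -0.08 without CC6, and with UQ factors alone the FC over CC value had the opposite sign, at 0.0057.

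In FC3 and RT3 the ribosomal-protein mRNAs and these host genes were high together. Summed oligodendrocyte markers were high there too, at 8278 RPM in FC3 and 7655 in RT3, against 5042 to 6119 in the other 13 libraries. Summed microglia, endothelium and blood markers were also highest in FC3 and RT3. Hippocampal neuron markers, at 5521 and 6401 RPM against 7041 to 8287, and astrocyte markers were lowest there. Striatum and thalamus markers were highest in FC3 only, and choroid plexus markers in neither. The part of any of these in the host gene values was not tested. FC3 also had the lowest share of mitochondrial reads, 3.07%, against 4.21% to 4.94% in the other 14 libraries. The 77 ribosomal-protein genes had a median log2 fold change of 0.34 in FC over CC with UQ factors alone and of 0.01 with RUVs, beside -0.00 and -0.01 for all genes tested.

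**Figure D4:**
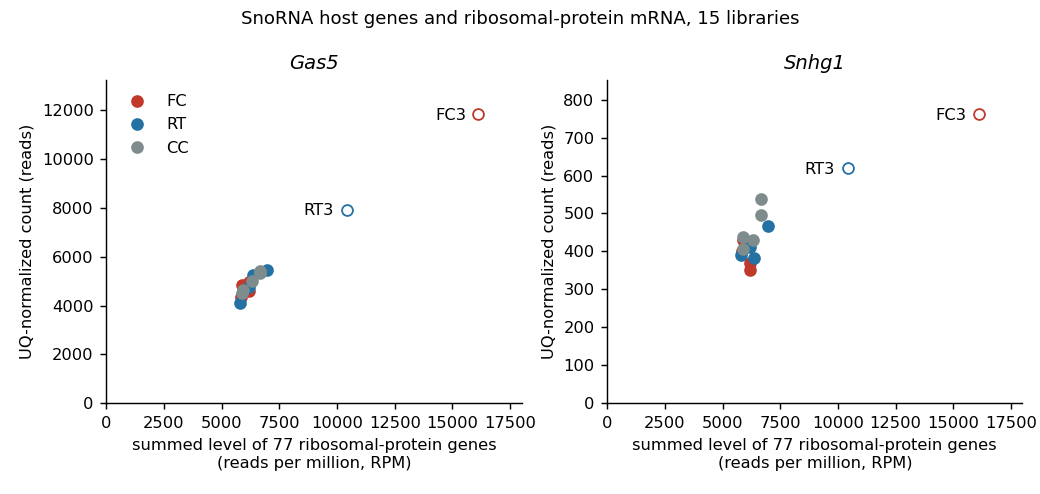
UQ-normalized counts of Gas5 and Snhg1 against the summed reads of 77 ribosomal-protein genes, in RPM; each point is 1 library, FC, RT and CC by colour, with FC3 and RT3 open. FC3 (16125 RPM) and RT3 (10422) stand up and to the right of the other 13 libraries.

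Gas5 and Snhg1 were the most alike pair of the 9 RNAs over all 15 libraries (Pearson's r 0.90). Without FC3 and RT3 their r was 0.60, below other pairs such as Rian and Snhg11 at 0.83. The RefSeq start regions of Gas5 and Snhg1 are shown, with that of Meg3, which holds a motif found in Gas5. Each runs from 100 bases before the start site through the first 50 transcribed bases on the plus strand, with coordinates found by exact match in mm9; the start site of Gas5 in RefSeq lies 744 bases inside the span of the mm9 annotation. Capitals mark the cyclic AMP response element TGACGTCA, the TATA-like word TATAAA on either strand (TTTATA when read on the other strand), and in Gas5 the pyrimidine run from the start site.
Gas5, chr1:162965197-162965346: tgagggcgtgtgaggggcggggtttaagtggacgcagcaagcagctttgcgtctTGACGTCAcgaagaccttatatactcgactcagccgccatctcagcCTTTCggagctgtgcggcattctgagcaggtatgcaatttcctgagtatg
Snhg1, chr19:8797877-8798026: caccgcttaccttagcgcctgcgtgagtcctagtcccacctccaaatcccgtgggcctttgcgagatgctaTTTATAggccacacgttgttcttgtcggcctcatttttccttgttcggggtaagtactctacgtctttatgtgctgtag
Meg3, chr12:110779106-110779255: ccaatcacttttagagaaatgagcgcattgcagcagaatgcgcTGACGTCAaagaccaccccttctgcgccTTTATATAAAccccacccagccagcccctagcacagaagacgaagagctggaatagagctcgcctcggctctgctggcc
TGACGTCA reads the same on both strands and begins 46 bases before the start site in Gas5 and 57 bases before it in Meg3. Of 32851 RefSeq promoter windows of 300 bases, 1.79% hold it, 13.6% hold TATAAA on either strand and 2.51% have a run of 5 or more pyrimidines from a C at the start site. The TATAAA and TTTATA of Meg3 overlap. A run of pyrimidines at the start is the mark of the ribosomal-protein genes, and besides Gas5 the start of Miat has one; Snhg1 has none at the annotated base. The AP-1 words TGACTCA and TGAGTCA, in 5.20% of all windows, and the E-box CACGTG, in 7.15%, were in none of the 10 windows of the 8 RNAs with an entry. Neat1 had no entry. These matches describe the letters in the windows and nothing about binding.

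Snhg11, at chr2:158201374-158211881 on the plus strand, is a neuron-rich host of SNORA71 snoRNAs. It had 94117, 93981, 88655, 100053 and 101965 UQ-normalized reads in FC3 to FC8. It had 87982, 98491, 96221, 95159 and 96648 in RT3 to RT8 and 105286, 110460, 94551, 104943 and 84195 in CC3 to CC8. CC spread most, from the lowest to the highest of all 15 values, and FC3 lay within the range of the other FC libraries. The log2 fold change of Snhg11 was -0.05 ± 0.04 in FC over CC (edgeR FDR 0.674) and -0.05 ± 0.04 in RT over CC (edgeR FDR 0.767). In FC over CC it was -0.02 without CC5, -0.07 without CC6, -0.01 without FC6 and -0.08 without FC7, and -0.12 without CC8, its lowest library (edgeR FDR 0.0163). In RT over CC it was -0.02 without CC5, -0.08 without CC6 and -0.11 without CC8 (edgeR FDR 0.0435).

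The small RNA genes inside the hosts showed a limit of the counts. Of 47 snoRNA and microRNA genes annotated inside the RNAs on the same strand, 24 lie wholly within host exons, merged over all annotated transcripts. These 24 had 0 reads in all 15 libraries, and each of the other 23 had reads. All 9 snoRNAs of Gas5 and all 8 of Snhg1 were among the 24. They cover 669 of the 3760 exon bases of Gas5 (17.8%) and 615 of the 2947 of Snhg1 (20.9%). HTSeq can leave a read uncounted where 2 genes share bases, and the mode used is not given in the sources used here, so the levels of Gas5 and Snhg1 may be understated. Gm20417, antisense to Malat1 over 425 exon bases, and Gm17639, antisense to Meg3 over 1228, also had 0 reads, and the library kit does not mark strand.

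These snoRNAs of Gas5, Rian and Snhg1 show the box C/D design; capitals mark box C (TGATGA) and box D (CTGA), and all were read from mm9.
Gas5 SNORD44, chr1:162966813-162966872: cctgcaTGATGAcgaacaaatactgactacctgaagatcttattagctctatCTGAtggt
Gas5 Snord47, chr1:162968213-162968289: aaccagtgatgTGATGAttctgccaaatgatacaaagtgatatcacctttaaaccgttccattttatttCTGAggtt
Snhg1 SNORD29, chr19:8799582-8799646: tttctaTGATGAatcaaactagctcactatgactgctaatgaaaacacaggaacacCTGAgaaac
Rian SNORD113, chr12:110887827-110887898: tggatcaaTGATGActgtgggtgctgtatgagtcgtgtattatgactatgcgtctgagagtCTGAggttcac
Rian AF357355, chr12:110892837-110892908: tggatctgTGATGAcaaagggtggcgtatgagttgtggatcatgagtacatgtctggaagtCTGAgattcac
The first 4 lie wholly in the merged host exons, which can include introns of a spliced transcript, and had 0 reads. AF357355 lies in an intron of Rian and had 94 reads over the 15 libraries. Of 10 genes inside or across the hosts that were tested, edgeR called 1 in FC against CC, 2 in RT against CC and 0 in FC against RT, beside 2.24%, 1.01% and 0.122% of all genes. An unadjusted p under 0.05 was found for 2, 5 and 1 of the 10 (20%, 50% and 10%), beside 16.5%, 11.1% and 10.7% of all genes. Mir541, inside Mirg, had 6, 22, 27, 23 and 26 UQ-normalized reads in FC3 to FC8, 8, 27, 39, 28 and 27 in RT3 to RT8 and 15, 18, 15, 23 and 12 in CC3 to CC8. FC3 and RT3 were its lowest libraries and the other RT libraries lay above every CC library. Its log2 fold change was 0.85 ± 0.21 in RT over CC (edgeR FDR 0.00478) and 0.53 ± 0.22 in FC over CC (edgeR FDR 0.173). A SNORD113 copy in an intron of Rian, chr12:110881958-110882028, was called lower in both, by a log2 fold change of -0.57 ± 0.15 in FC over CC (edgeR FDR 0.00763) and -0.61 ± 0.14 in RT over CC (edgeR FDR 0.00348). It had 0 reads in FC3 and 8 in RT3, against 23 to 80 in the other libraries. At these low counts, reads of a small RNA precursor and of unspliced host cannot be told apart.

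The fitted differences of the 9 RNAs were also summarised as a list. In FC against CC 6 of 9 fold changes were below 0 and the median was -0.03, beside -0.01 over all genes tested, and the median absolute value was 0.03, beside 0.06. In that comparison 2 of the 9 had an unadjusted p under 0.05, beside 16.5% of all genes. In RT against CC, where 1.01% of all genes tested were called, 0 of 9 RNAs were called by edgeR, by its quasi-likelihood test or by DESeq2. An unadjusted p under 0.05 was found for 2 of the 9, beside 11.1% of all genes. Of the 9, 7 were below 0, the median was -0.07, beside -0.00 over all genes, and the median absolute value was 0.07, beside 0.05. In FC against RT, where 0.122% of all genes were called, 0 of 9 were called by any of these tests. Of the 9, 3 had an unadjusted p under 0.05, beside 10.7% of all genes. The median was -0.01, beside -0.01 over all genes, and the median absolute value was 0.06, beside 0.05. The FC and RT libraries of a number deviated together, and with the number as a replicate block 82 in place of 22 genes were called between FC and RT, again with 0 of the 9. FC and RT were compared with the same CC libraries, so their values against CC are not independent.

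In none of the 9 RNAs were the UQ-normalized groups free of overlap, in FC against CC, RT against CC or FC against RT, and 0.861%, 1.29% and 0.211% of all genes tested were. After RUVs, Rian had no overlap between FC and CC, and Mirg had none in either comparison with RT. The share of all genes was 11.5% for FC against CC, 6.59% for RT against CC and 7.59% for FC against RT. The widest 95% interval in RT against CC was that of Malat1, from -0.34 to 0.12.

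**Figure D5:**
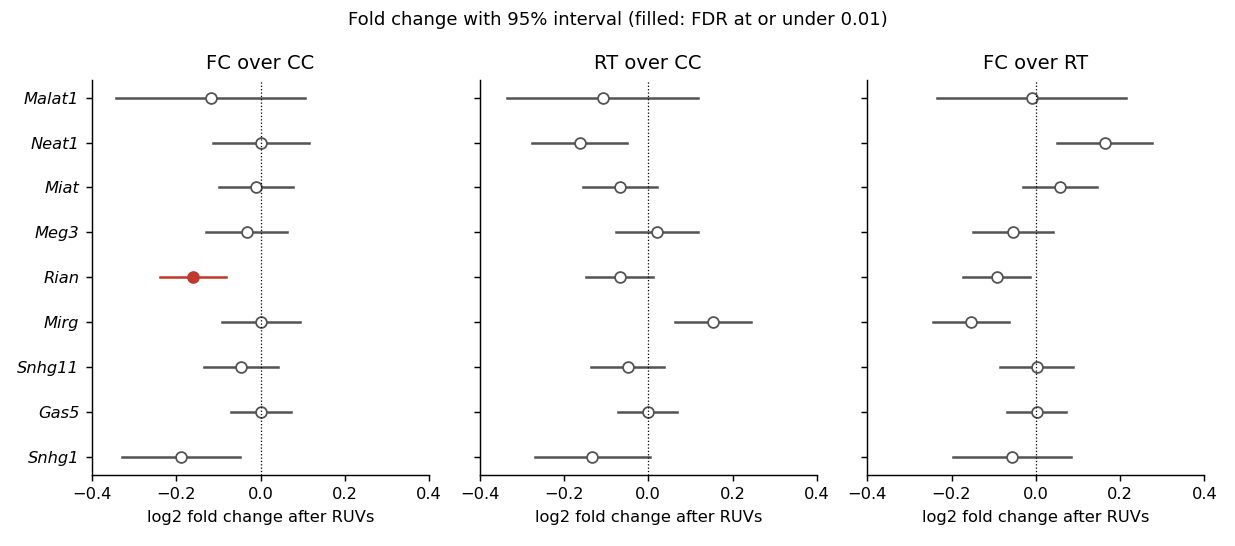
Log2 fold change after RUVs for FC over CC, RT over CC and FC over RT; points are the edgeR estimates, lines are 95% intervals, and a filled point has an FDR at or under 0.01. Rian in FC over CC, at -0.16, is the 1 filled point; the intervals of Neat1 and Mirg in RT over CC and in FC over RT, of Snhg1 in FC over CC and of Rian in FC over RT also leave out 0 without an FDR past the threshold.

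Within groups, the 9 RNAs differed in how far FC3 and RT3 moved them. The within-group SD of log2 UQ-normalized counts of Gas5 was 0.41 over 15 libraries and 0.13 over the 13 without FC3 and RT3. For Mirg it was 0.24 and 0.09, for Rian 0.20 and 0.08, and for Snhg1 0.32 and 0.14. Malat1 had 0.25 and 0.24, Meg3 had 0.15 and 0.15 and Snhg11 had 0.11 and 0.11, so these 3 spread as much without FC3 and RT3 as with them. The median over all genes tested was 0.25 over 15 libraries and 0.11 over 13. Over the 10615 genes with a mean count at or above that of the lowest of the 9 RNAs, the median was 0.20 over 15 libraries and 0.08 over 13. Over the 13 libraries each of the 9 RNAs had an SD at or above that second median, with Rian close to it and Malat1 farthest above.

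The other genes of these pathways were counted in the same way. In 11 lists of related genes with 207 tested entries, edgeR called 1 entry in FC against CC and 0 in RT against CC and in FC against RT, beside 2.24%, 1.01% and 0.122% of all genes tested. An unadjusted p under 0.05 was found for 14 entries in FC against CC (6.76%, beside 16.5% of all genes), 15 in RT against CC (7.25%, beside 11.1%) and 19 in FC against RT (9.18%, beside 10.7%). The quasi-likelihood test and DESeq2 each called 1, 0 and 0. The called gene was the brain noncoding RNA 2900097C17Rik, 1 of 13 in its list. It had 26, 1354, 1504, 1668 and 986 UQ-normalized reads in FC3 to FC8, 430, 1584, 1273, 1338 and 861 in RT3 to RT8, and 1466, 1174, 1169, 1525 and 1807 in CC3 to CC8. FC3 was close to 0 and the other FC libraries overlapped CC; the log2 fold change in FC over CC was -0.38 ± 0.06 (edgeR FDR 2.22e-08).

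The medians of the lists stayed near that of all genes, -0.01 in FC over CC and -0.00 in RT over CC. For 9 other snoRNA host genes the median log2 fold change was -0.02 in FC over CC and -0.00 in RT over CC. For 10 other genes in or next to the Dlk1-Dio3 domain it was -0.00 and 0.02, and for 4 other imprinted noncoding RNAs 0.01 and 0.06. The 13 other brain noncoding RNAs had -0.04 and -0.06. Among partners of the nuclear RNAs, 25 paraspeckle proteins had -0.02 and -0.02, 22 nuclear speckle and Malat1-associated proteins -0.03 and -0.03, and 11 genes of Miat-associated splicing factors -0.00 and -0.02. The 16 nonsense-mediated decay factors had -0.00 and 0.01, the 10 box C/D snoRNP proteins -0.02 and 0.00, and the 10 microRNA processing proteins -0.02 and -0.02.

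Likeness between profiles was described by Pearson's r of log2 UQ-normalized counts over the 13 libraries without FC3 and RT3, with r over all 15 beside it; these libraries share depth, lanes and groups, and no test was made. Gas5 was most like Pdap1 (0.96 and 0.99), the ribosomal-protein gene Rpl32 (0.95 and 1.00) and the cyclin-dependent kinase gene Cdk11b (0.95 and 0.99). Snhg1 was most like Tiprl (0.91 and 0.96), Dusp14 (0.91 and 0.97) and Arf2 (0.90 and 0.93). Mirg was most like Prkra (0.90 and 0.94), Cdk2ap1 (0.86 and 0.96) and Lbh (0.85 and 0.42). Rian was most like Calcb (0.88 and 0.23), Nup35 (0.88 and -0.55) and Cdkl4 (0.87 and 0.95), and for Nup35 the sign turned with FC3 and RT3.

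Meg3 was most like Unc13b (0.93 and 0.87), Plxnc1 (0.93 and 0.76) and Plekhn1 (0.89 and 0.61). Snhg11 was most like Lphn2 (0.94 and 0.59), Pitpnm3 (0.90 and 0.66) and Atp2b4, a calcium pump gene (0.90 and 0.77). Miat was most like Zmym3 (0.94 and 0.92), Fam36a (0.92 and 0.65) and Pyroxd1 (0.91 and 0.91). The 3 genes nearest to Malat1 were Myo6 (0.91 and 0.21), the small RNA snoU90 (0.89 and 0.89) and Prpf38b (0.88 and 0.21). Those nearest to Neat1, namely Atp13a5, Ttc30b and the macrophage gene Emr1, had 0.92, 0.90 and 0.86 over 13 libraries and -0.15, -0.21 and -0.10 over 15. Among the 9 RNAs, Gas5 and Snhg1 had 0.60 over 13 libraries and 0.90 over 15. Rian and Snhg11 had 0.83 and 0.47, Meg3 and Snhg11 had 0.73 and 0.69, and Rian and Mirg, neighbours in the domain, had 0.35 and -0.73.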

How the data were processed

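PolyA-selected RNA was sequenced as read pairs, 3 libraries to a lane, 1 of each group. Per the labels and methods, the authors aligned reads with GSNAP to mm9 and deposited raw counts per Ensembl gene made with HTSeq 0.6.1; the strand setting and counting mode are not given in the sources used here. All 37310 identifiers matched the GENCODE M1 annotation, from which symbols and mm9 positions were taken. No sample was left out. The study describes each of the 5 libraries a group as a biological replicate. P-values from the fit with 5 RUVs factors measure the spread between libraries left after those factors, which were estimated from the same libraries. That fit had 7 residual degrees of freedom and a common biological coefficient of variation of 0.045. With UQ factors alone these were 12 and 0.203.

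The 18008 genes that exceeded 10 reads in over 5 libraries were fitted in R 4.3.3 with edgeR 4.0.16, UQ factors and 5 RUVs factors from the 625 negative control genes of the study, written anew from the published algorithm and tested on simulated data. SE was obtained by dividing the absolute log2 fold change by the root of the likelihood ratio, and 95% intervals are 1.96 SE to either side. DESeq2 1.42.0, other factors, filters, a replicate block and left-out libraries were alternatives. Where the labels' numbers match, deviations from the group means correlated at 0.25 to 0.87 in the 5 pairs of FC and RT. Between FC and RT libraries of different number the median was 0.14 and the highest 0.51, so the ranges overlap. The labels do not say what the numbers mark. Between FC and CC 1 of 5 same-numbered pairs, and between RT and CC 0 of 5, had a correlation over 0.1. The chi-square per degree of freedom between libraries of a group was 6.29 or more, so none was counted as a repeat.

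The 9 RNAs and all lists were chosen with earlier results of these data known. The genes named are the 9 RNAs, the 3 genes most like each, called members of each list (at most 4 a comparison), the 4 activity-induced genes, and, chosen after their values were seen, Mir541 and 1 SNORD113 copy.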

Additional observations from a re-analysis of the deposited data

Results flagged for a closer look

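A library was singled out where its gap to the nearest of the 5 libraries of its group exceeded 0.71 of the whole range (Dixon's test). Of 36 groups of values examined, 7 had such a library and each time it was FC3; chance alone gives about 1 in 20. By the same measure FC3 was set apart for 46.4% of the 18008 genes tested and for 4 of the 9 RNAs, so a place apart in FC3 is no property particular to them. The FC3 difference of Rian was larger in size than that of 54.6% of all genes, that of Mirg than 63.1%, that of Snhg1 than 69.5% and that of Gas5 than 83.7%. The normalized counts were 14739 reads for Rian, 2088 for Mirg, 11824 for Gas5 and 761 for Snhg1. The ratios were 9.97 Rian reads and 1.41 Mirg reads per 100 Meg3 reads, and 14.2 Mirg reads per 100 Rian reads. Rian was low in FC3, and Mirg, Gas5 and Snhg1 were high. RT3, the other library that stood apart, passed this limit for none of them, beside 18.2% of the 18008 genes tested.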

How the results depend on the processing

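Of 27 fold changes, 15 exceeded their SE; 14 of these kept their direction under all 12 alternatives and all 15 fits that left out 1 library, and Snhg1 in FC over CC turned to 0.0057 with UQ factors alone. Leaving out 1 library moved 10 of the 15 by over 1.5 times; those of Neat1 and Mirg, and Rian in FC over CC, moved less. Of the 12 within their SE, 11 turned in some fit. In FC against CC the number of the 9 RNAs called was 1, and it was 0 with UQ factors alone, 3 RUVs factors, RUVs with all genes as controls, the quasi-likelihood test, no filter, a replicate block (Rian -0.15, edgeR FDR 0.0381), a replicate block with UQ factors alone (Rian -0.25, FDR 0.893) and without FC5 and FC8, a setting chosen after seeing the data. Leaving out 1 library gave 0 to 1 in FC against CC and 0 to 1 in FC against RT. The replicate block changed no other call among the 9; Mirg in FC over RT had -0.16 in its place with an FDR of 0.0137. Group ratios from RPM or TMM counts differed from the UQ ones by less than 1 within-group SD for all 9.

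Over all genes, 403 calls in FC against CC (237 higher, 166 lower) became 34 (32 and 2) with UQ factors alone, 176 with 3 factors, 98 by quasi-likelihood, 164 by DESeq2, 266 without filter, 45 with block and UQ alone, 192 without FC5 and FC8, 624 without CC8 and 241 without FC5. In RT against CC 182 became 19, 66 and 85 with UQ alone, quasi-likelihood and DESeq2, and 27 with block and UQ alone. In FC against RT 22 (14 and 8) became 21 (17 and 4) with TMM, 0 with UQ alone, quasi-likelihood or block with UQ alone, 1 with 3 factors, 39 with all genes as controls, 4 by DESeq2, 82 with the block, 50 without FC3 and RT3, and 3 to 92 leaving out 1 library. The cause was not tested. The small RNA genes that were tested had medians of 5 to 143 UQ-normalized reads, fewer than any of the 9 RNAs.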
